A study of Homo sapiens with 6 samples.

Results

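The genes described here had almost no reads in untreated human dermal fibroblasts or in fibroblasts with wild-type MyoD (WT-MyoD), and were read in both libraries under VP64-MyoD. They were chosen from the raw counts after all human transcript rows of a gene symbol had been summed. A gene was kept if it had at most 4 counts in each of the 2 untreated and the 2 WT-MyoD libraries and at least 20 counts in both VP64-MyoD libraries. Of 23439 genes with a symbol, 18861 had any count and 90 met the rule, which is 0.477% of those with a count. Each read pair was counted as 2, so the limits correspond to at most 2 and at least 10 read pairs. Because the counts themselves chose the genes, their levels and differences are given as a description without a test.

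All cells came from 1 line of primary skin fibroblasts. The untreated cells are labelled as expressing no added gene, and the labels do not say whether they were transduced, selected or given doxycycline. The WT-MyoD cells carried a Tet-ON lentivirus for mouse MyoD, and the VP64-MyoD cells carried that vector with the VP64 activation domain joined to the N-terminus of mouse MyoD. In both, the red fluorescent protein dsRed-Express2 was made from the same transcript. After puromycin selection and growth to confluence, the transduced cells were kept in 3 µg/mL doxycycline and harvested at day 10. The design text calls the 2 libraries of each group biological duplicates, so the p-values below measure only the spread between cultures of this line.

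MyoD is a basic helix-loop-helix transcription factor of the skeletal muscle lineage and can convert fibroblasts toward muscle. It binds DNA with an E protein partner at a short sequence called an E-box, and E-boxes are also the sites of related factors of other lineages, such as the NEUROD factors of neurons. VP64 is an artificial activation domain built from repeats of a herpesvirus peptide that recruits the transcription machinery.

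Promoter sequence was not used by the rule. RefSeq promoter windows on GRCh38.p14, from 250 bases before to 50 bases after the start of a gene, were found for 57 of the 90 genes. The E-box CANNTG on either strand was present in 40 of the 57 windows (70.2%), against 68.9% of all 27305 windows in the table and 61.3% of the windows of genes tested for expression. The form CAGCTG, which MyoD prefers and which is contained in CANNTG, was present in 14 (24.6%), against 17.7% of all windows. At least 2 CAGCTG sites were present in 5 windows (8.77%), against 2.02% of all windows. The 5 genes were PRKCB, CPVL-AS2, LINC03062, LRRC30 and SPSB4. The form CAGGTG or its complement CACCTG was present in 17 (29.8%), against 20.6% of all windows. Among 101 windows of genes that were low in untreated cells and reached at least 20 counts in both libraries of both MyoD groups, 36.6% held CAGCTG and 26.7% held CAGGTG. These are counts of letters in a window and not of bound sites.

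The upstream sequences of 4 of the genes are shown because they hold CAGCTG in different settings. PRKCB has the most CAGCTG sites of the 57 windows, with 4, of which 2 lie whole in the stretch shown. LRRC30 has 1 site far from and 1 close to its start. MYBPC1 is the skeletal muscle gene with the most counts in the set, and KRTAP4-1 is a hair gene. CAGCTG is in capitals. The stretches are PRKCB at chr16:23835833-23835982, plus strand, LRRC30 at chr18:7230859-7231088, plus strand, MYBPC1 at chr12:101594731-101594820, plus strand, and KRTAP4-1 at chr17:41184912-41185001, minus strand, all upstream of the start in RefSeq's GRCh38.p14.
PRKCB: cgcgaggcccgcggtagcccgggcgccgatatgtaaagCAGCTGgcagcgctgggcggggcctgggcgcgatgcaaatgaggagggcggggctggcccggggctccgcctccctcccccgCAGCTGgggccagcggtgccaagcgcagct
LRRC30: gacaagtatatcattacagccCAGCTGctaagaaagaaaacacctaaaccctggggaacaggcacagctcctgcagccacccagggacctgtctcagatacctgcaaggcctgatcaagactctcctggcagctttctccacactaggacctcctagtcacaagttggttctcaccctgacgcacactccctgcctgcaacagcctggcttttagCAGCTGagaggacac
MYBPC1: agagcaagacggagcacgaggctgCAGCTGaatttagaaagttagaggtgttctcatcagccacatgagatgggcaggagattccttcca
KRTAP4-1: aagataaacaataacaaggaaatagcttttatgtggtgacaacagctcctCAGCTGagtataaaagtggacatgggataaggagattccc

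Library totals lay between 40997586 and 53804224 counts. The mouse Myod1 transgene had 254 and 46 counts in the untreated libraries, 42900 and 41736 under WT-MyoD, and 5372 and 5056 under VP64-MyoD. Transgene RNA was thus lower under VP64-MyoD than under WT-MyoD, and the activation domain and the amount of transgene RNA cannot be told apart in any value below. The fibroblast collagen gene COL1A1 had between 440674 and 910424 counts in every library, whereas the albumin gene ALB had at most 8. These are bulk samples, in which a few cells with much RNA of a gene and many cells with little cannot be told apart.

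Together the 90 genes had 42 and 48 counts in the untreated libraries, 138 and 132 under WT-MyoD, and 7338 and 7156 under VP64-MyoD. These are 0.0163% and 0.0145% of the VP64-MyoD libraries. The genes were weakly expressed in the VP64-MyoD cells: the lower of their 2 VP64-MyoD counts had a median of 40 and a maximum of 606, and it was at least 100 for 15 genes and from 20 to 30 for 26. The 10 highest genes held 42.8% of the counts. In all untreated and WT-MyoD libraries together, 22 genes had no count. With WT-MyoD, 27 genes had no count in either library, 52 had more counts than in untreated cells and 7 had fewer, so the set includes genes with a trace of reads in WT-MyoD cells. A group of 2 libraries without a count still allows up to 3 read pairs, or 6 counts, and this limit covers counting error only.

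**Figure D1:**
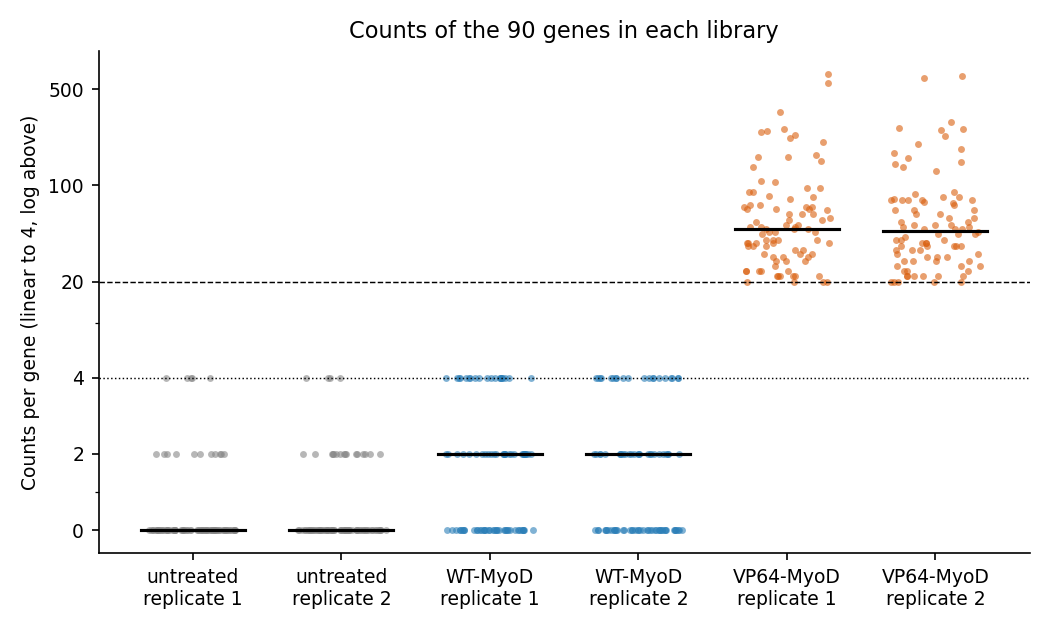
Counts of each of the 90 genes (points, vertical axis linear up to 4 and logarithmic above) in each of the 6 libraries, with the median as a black bar. The dotted and dashed lines are the limits of 4 and 20 counts that chose the genes, so the gap between the groups is set by the rule, and most VP64-MyoD points lie between 20 and 100 counts.

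All 90 genes were tested in the edgeR fit and called higher under VP64-MyoD than under WT-MyoD, beside 28.7% of the 15274 genes tested. Against untreated cells, all 90 were called higher as well, beside 33.3% of genes tested called higher and 30.3% called lower. The rule fixed these counts, and nothing is read from them. The 2 VP64-MyoD libraries differed by a median ratio of 1.21 between the higher and the lower value of a gene after scaling to library size. This scaled ratio was over 1.5 for 18 genes and highest for BTNL3, at 2.22.

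By what the genes are known for, 11 belong to skeletal muscle and tendon, 19 to the nervous and neuroendocrine system, 10 to hair and skin, 8 to blood, immune and endothelial cells, 6 to cilia and the germ line, 5 to liver, gut and taste cells, and 2 to the retina. Another 3 are potassium channels of several tissues, 11 are non-coding RNAs or pseudogenes, and 15 were not assigned to a tissue. These classes were assigned by hand from general knowledge once the 90 genes were known, and many of the genes are made in more than 1 tissue. The nervous system genes held 2042 and 1936 counts in the VP64-MyoD libraries, the muscle and tendon genes 866 and 858, and the blood genes 812 and 884, most of them from PRKCB. No class held all of the strongly read genes, and the median of the lower VP64-MyoD count lay between 24 in the blood genes and 184 in the potassium channels.

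**Figure D2:**
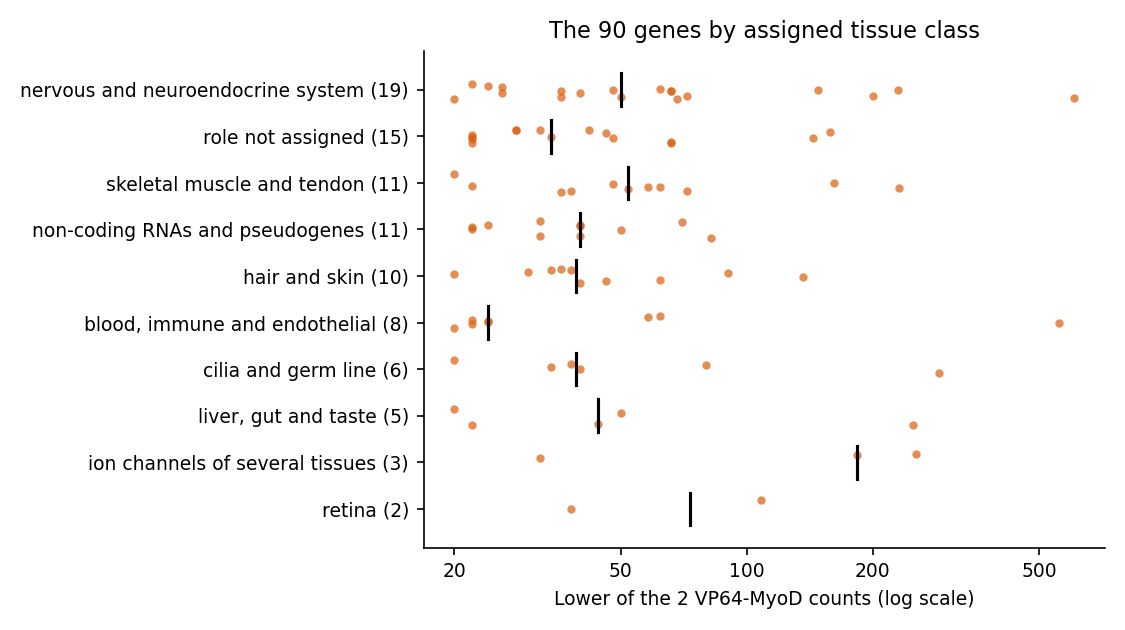
The lower of the 2 VP64-MyoD counts (horizontal axis, log scale) of each of the 90 genes (points), by the class it was assigned to, with the number of genes in parentheses and the class median as a black bar. Every class reaches down to between 20 and 38 counts, and KISS1, in the nervous and neuroendocrine class, is highest at 606.

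Within the muscle genes, the thick filament protein gene MYBPC1, the slow-type myosin binding protein C, had 0 and 0 counts untreated, 4 and 4 under WT-MyoD, and 232 and 256 under VP64-MyoD. The gene of fast troponin I, TNNI2, the inhibitory subunit of troponin, had 0 and 0, then 4 and 2, then 82 and 72. Parvalbumin (PVALB), a calcium buffer of fast fibres and of some neurons, had no count in the 4 other libraries and 162 and 172 under VP64-MyoD, at least 55.1-fold higher than under WT-MyoD. In all 3 genes the VP64-MyoD libraries lay close together, and the gap to the other libraries is demanded by the rule. JSRP1, a protein of the junctional sarcoplasmic reticulum, had 0 and 0, then 2 and 0, then 58 and 78 counts. The regulatory light chain gene MYL10 had 2 and 0, then 4 and 0, then 80 and 62. ANO5, an anoctamin of muscle membranes, had 56 and 52 counts under VP64-MyoD and none elsewhere, and PPP1R3A, the subunit that targets a phosphatase to glycogen in muscle, had 52 and 48 and none elsewhere. Read only under VP64-MyoD, COL22A1, a collagen of the muscle-tendon junction, had 38 and 36 counts.

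The homeobox factor LBX1, which marks migrating muscle precursors and also spinal cord neurons, had 0 and 0 counts untreated, 2 and 2 under WT-MyoD, and 56 and 38 under VP64-MyoD. Its neighbour on chromosome 10, the non-coding gene LBX1-AS1, had 0 and 0, then 0 and 2, then 70 and 78. Both genes of this pair were low in the 4 other libraries, as the rule demands, and at or above 38 counts in both VP64-MyoD libraries. SCX, a transcription factor of tendon, had 2 and 0, then 2 and 2, then 22 and 24 counts, but it overlaps BOP1, which had 3066 counts over the WT-MyoD libraries and 3674 over the VP64-MyoD libraries. Per the labels' protocols the libraries were made by tagmentation of double-stranded cDNA, which keeps no strand, and a read from a stretch where genes overlap could belong to either gene. The tendon gene TNMD had no count in any library. SBK3, a kinase gene of heart and muscle, had 0 and 0, then 2 and 0, then 28 and 20 counts, near the limit of the rule.

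Relatives of the muscle genes outside the set had other patterns. The slow troponin I gene TNNI1 had 10922 and 7540 counts under WT-MyoD and 18700 and 18280 under VP64-MyoD (log2 difference 1.00, SE 0.08, adjusted p by edgeR = 2.94e-08). MYBPC2, the fast-type relative of MYBPC1, missed the rule by 1 WT-MyoD library, with 4 and 6 counts there and 1446 and 1294 under VP64-MyoD (log2 difference 8.05, SE 0.26, adjusted p by edgeR = 5.9e-13). The cardiac relative MYBPC3 had no count in any library. Of the 64 tested genes of a list of skeletal contractile genes, 2 were among the 90, and of the other 62, 51 were higher and 2 lower under VP64-MyoD than under WT-MyoD (28.7% and 28.4% of all genes), with a median log2 difference of 2.63 against 0.015 for all genes tested. Of 46 other tested genes of excitation and the neuromuscular junction, 32 were higher and 5 lower, with a median of 1.42. Of 29 other tested myogenic and mesoderm factors, 16 were higher and 6 lower. HES6 (log2 difference 3.06, SE 0.08, adjusted p by edgeR = 1.12e-13) and MYOG (2.81, SE 0.08, adjusted p by edgeR = 2.98e-13) were among the higher. SIM1 (-1.59, SE 0.07, adjusted p by edgeR = 4.65e-11) was among the lower. MYF5, MYF6 and PAX7, factors of muscle precursors and fibres, had no count in any library. Of 13 other tested cardiac genes, 8 were higher and 2 lower. The higher included ANKRD1 (log2 difference 2.96, SE 0.08, adjusted p by edgeR = 1.38e-13), TNNT2 (1.69, SE 0.08, adjusted p by edgeR = 8.25e-11) and MYOCD (3.69, SE 0.28, adjusted p by edgeR = 1.53e-08). The heart factors NKX2-5 and GATA4 had no count.

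The nervous and neuroendocrine genes included the gene with the most counts of the set. KISS1, which encodes the kisspeptin hormone that controls reproductive neurons, had 2 and 0 counts untreated, 4 and 2 under WT-MyoD, and 652 and 606 under VP64-MyoD. Per length it was also the highest, at 18.2 CPM (counts scaled to a common library size) per kilobase of transcript, against 5.73 for PVALB and a median of 0.397 over the 88 genes with a known length. Its receptor gene KISS1R had no count in any library. LRTM2, a leucine-rich repeat membrane protein gene of the nervous system, had 0 and 2, then 2 and 4, then 246 and 230 counts. It overlaps the calcium channel gene CACNA2D4, which had fewer counts there, with 64 over the WT-MyoD and 16 over the VP64-MyoD libraries. SLC24A3, a potassium-dependent sodium-calcium exchanger, had 0 and 0, then 2 and 2, then 220 and 200 counts, and LINGO1, an inhibitor of axon growth, had 2 and 0, then 2 and 4, then 160 and 148. The adenylyl cyclase gene ADCY2 had 4 and 2, then 4 and 4, then 72 and 86. Each of these genes was well separated between VP64-MyoD and the other groups, as the rule demands.

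NEUROD2, a basic helix-loop-helix factor of cortical neurons, had 0 and 2 counts untreated, 2 and 4 under WT-MyoD, and 106 and 66 under VP64-MyoD. No other NEUROD or NEUROG gene of the table (NEUROD1, NEUROD4, NEUROD6, NEUROG1, NEUROG2 and NEUROG3) had a count in any library. The sodium-activated potassium channel gene KCNT1 had 0 and 2, then 4 and 0, then 52 and 36. Other nervous system genes of the set were the histamine receptor HRH3 (68 and 78 counts under VP64-MyoD), the sodium-calcium exchanger SLC8A2 (72 and 66), C1QL4, a secreted synaptic protein (96 and 62), CSMD1 (48 and 82), NETO1, an auxiliary subunit of glutamate receptors (50 and 54), and the synaptotagmin SYT6 (40 and 52). TMEM163, CHST8, the ephrin receptor EPHA7, IGSF21, the pentraxin NPTX2 and the phosphatase PTPRT had between 20 and 40 counts under VP64-MyoD.

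Marker genes of neurons in a list of 156 were compared with these values. Of the 156, 36 had no count in any library, including TH, CHAT, GAD2 and ELAVL3, defining genes of dopamine, acetylcholine and GABA neurons and of neurons in general. The other 120 had a count, beside 18861 of all 23439 genes with a symbol, so the 36 are not read as a lack particular to this list. Of 62 tested genes outside the 90, 28 were higher and 10 lower (6 lower without VP64-MyoD replicate 1) under VP64-MyoD than under WT-MyoD, against 28.7% and 28.4% of all genes, with a median log2 difference of 0.39. The summed level of the list was 221.2 and 226.2 CPM untreated, 279.9 and 304.0 under WT-MyoD, and 409.5 and 388.7 under VP64-MyoD. The dopamine beta-hydroxylase gene DBH was higher (log2 difference 5.64, SE 0.21, adjusted p by edgeR = 3.16e-12), with 32 and 18 counts under WT-MyoD and 1328 and 1190 under VP64-MyoD. STMN2 (log2 difference 2.75, SE 0.09, adjusted p by edgeR = 6.37e-13) and CAMK2B (3.7, SE 0.12, adjusted p by edgeR = 9.7e-13) were higher as well. The glutamate receptor gene GRIA1 was lower (log2 difference -4.11, SE 0.10, adjusted p by edgeR = 4.58e-14). The list's part in the levels of the 90 genes was not tested.

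**Figure D3:**
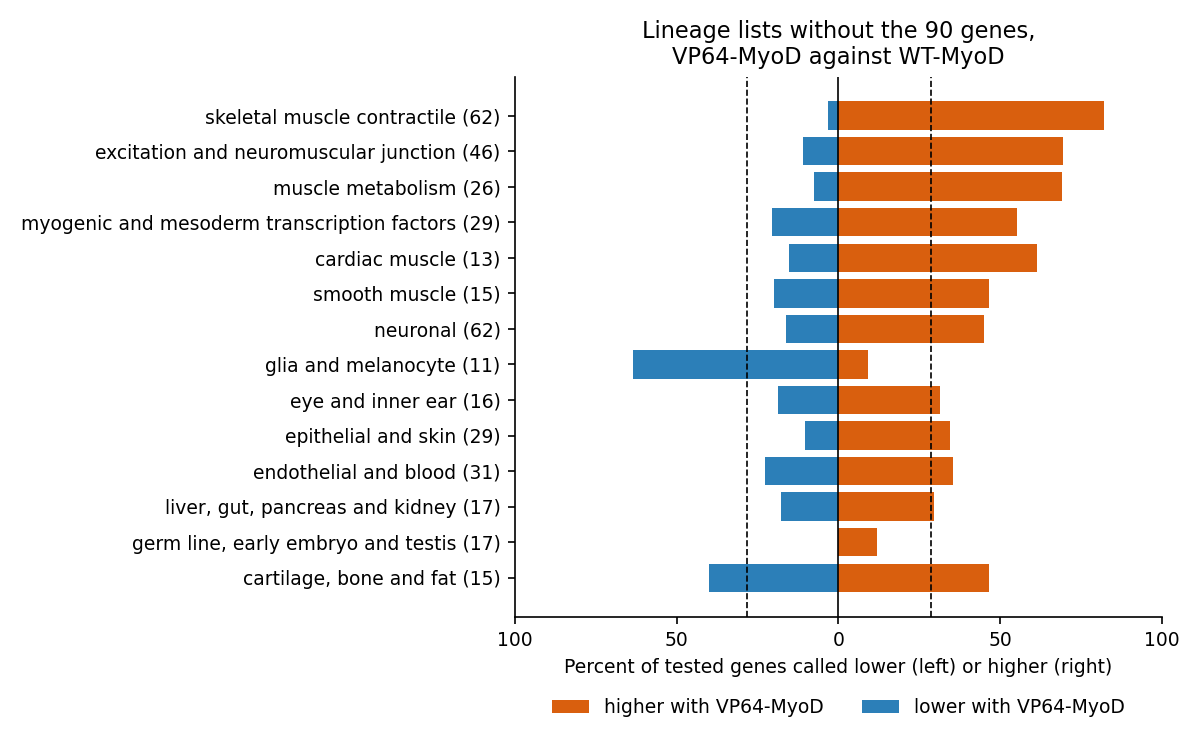
Percent of the tested genes of each lineage list, the 90 genes left out, called higher (right) or lower (left) under VP64-MyoD than under WT-MyoD by edgeR at an adjusted p under 0.05, with the number tested in parentheses. Dashed lines mark the share of all 15274 genes called, 28.7% higher and 28.4% lower, and the skeletal contractile list, 51 of 62, lies furthest to the right.

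Of the 10 hair and skin genes, 6 lie in 1 stretch of chromosome 17. KRTAP16-1, a keratin-associated protein of the hair shaft, had 0 and 2 counts untreated, 0 and 0 under WT-MyoD, and 96 and 90 under VP64-MyoD. KRTAP3-2 had 0 and 0, then 4 and 2, then 46 and 46, and KRTAP9-4 had 0 and 0, then 4 and 0, then 48 and 36. KRTAP4-1, whose upstream sequence is printed above, had 0 and 2, then 2 and 0, then 38 and 30. The hair keratin genes KRT33B (4 and 2, then 4 and 2, then 38 and 44) and KRT39 (0 and 0, then 4 and 2, then 34 and 34) lie in it as well. Apart from KRT39, the 6 genes have relatives of similar sequence, and how reads were divided among them is uncertain.

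The stretch of type I keratin and keratin-associated protein genes on chromosome 17, looked at after the members were known, held 59 genes. Of its 30 keratin-associated protein genes, 9 had a count in untreated cells, 12 under WT-MyoD and 26 under VP64-MyoD, and the VP64-MyoD counts were above the WT-MyoD counts in 23 and below them in 1. The rule fixed the direction of 4 of the 30. In the 26 others, 7 had a count in untreated cells, 9 under WT-MyoD and 22 under VP64-MyoD, and the VP64-MyoD counts were above the WT-MyoD counts in 19 and below them in 1. Most of these counts were small, for example 18 and 16 for KRTAP9-8 against none under WT-MyoD (log2 difference 7.07, SE 1.40, adjusted p by edgeR = 6.71e-04, set by the prior count because the other libraries were at 0). KRTAP1-5, the highest of them in untreated cells, was lower under VP64-MyoD than under WT-MyoD (log2 difference -1.0, SE 0.12, adjusted p by edgeR = 2.27e-06). Only 7 of the 26 were tested, of which 2 were called higher and 1 lower, against 28.7% and 28.4% of all genes. For having a count and for direction, no share over all genes was taken, so no excess in the 26 is read from those numbers. Where reads were divided among relatives of similar sequence, leaving out the members does not free the 26 from the rule. Of the 29 keratin genes, VP64-MyoD counts were above WT-MyoD counts in 11 and below in 9, and without the 2 members above in 9 and below in 9. KRT40, next to KRT39, had 0 and 0 counts untreated, 64 and 28 under WT-MyoD, and 274 and 246 under VP64-MyoD (log2 difference 2.51, SE 0.25, adjusted p by edgeR = 6.93e-07). KRT19, a keratin of simple epithelia, was lower (log2 difference -2.59, SE 0.14, adjusted p by edgeR = 2.18e-10).

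**Figure D4:**
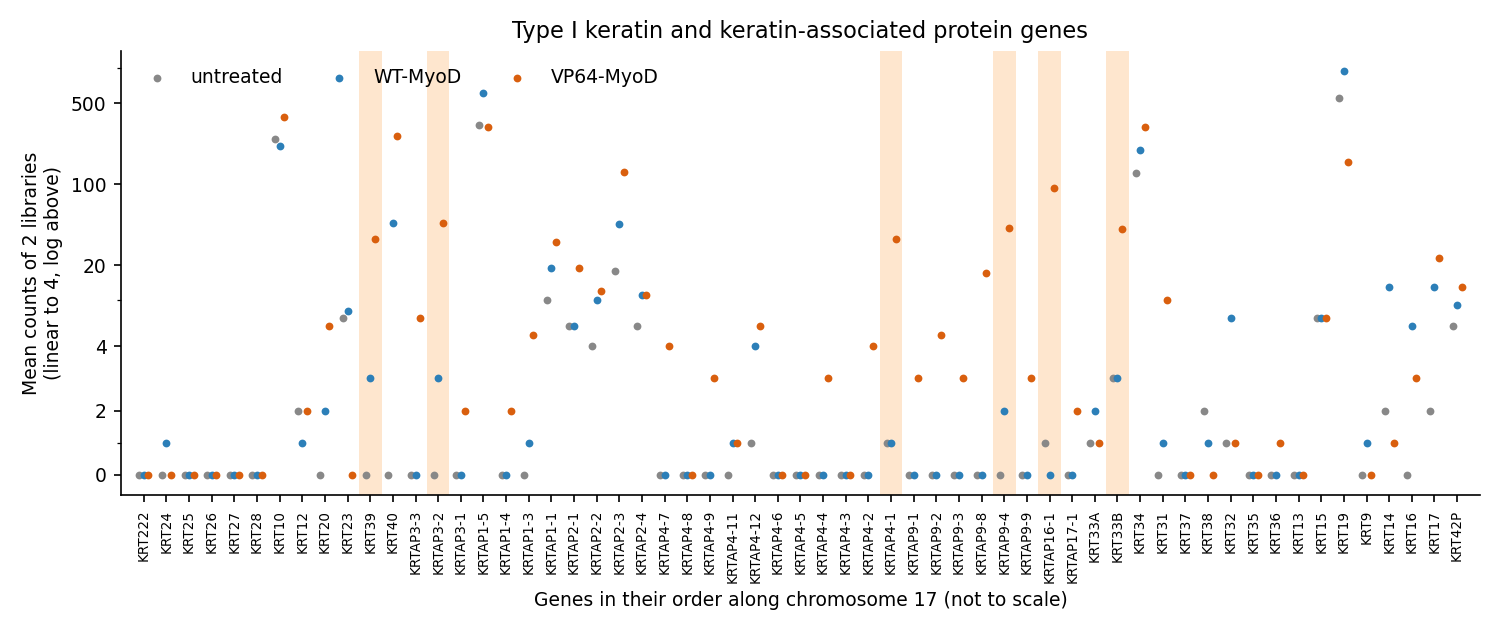
Mean counts of the 2 libraries of each group (vertical axis, linear up to 4 and logarithmic above) for the 59 type I keratin and keratin-associated protein genes, in their order along chromosome 17 (horizontal axis, not to scale). Shaded columns are the 6 genes of the set of 90. Of the 26 keratin-associated protein genes outside the set, 22 have a count under VP64-MyoD against 9 under WT-MyoD, most of them small. The share of all genes with such a count was not taken. Of these 26, 7 were tested, and 2 were called higher and 1 lower.

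SPRR2G, a small proline-rich protein gene of the outer skin layer on chromosome 1, had 136 and 136 counts under VP64-MyoD and none elsewhere, at least 44.9-fold higher than under WT-MyoD. The other SPRR genes had at most 2 counts in any library. The melanocortin receptor gene MC5R (62 and 74 counts under VP64-MyoD), the phospholipase gene PLA2G4D (70 and 40) and the defensin gene DEFB103B (20 and 20) completed the skin genes. Of the 29 tested genes of an epithelial and skin list, none of them in the set, 10 were higher and 3 lower under VP64-MyoD (6 higher by DESeq2, and 5 lower without WT-MyoD replicate 1). Of all genes tested, 28.7% were higher and 28.4% lower. PKP1 had the smallest adjusted p of the list and was higher (log2 difference 4.79, SE 0.13, adjusted p by edgeR = 1.07e-13). KRT1, KRT13 and DSG1, defining genes of stratified skin, had no count in any library. KRT5 had 0 counts in untreated and WT-MyoD cells and 6 and 4 under VP64-MyoD. The list's summed level was 202.6 and 186.9 CPM under VP64-MyoD, between the values under WT-MyoD (125.6 and 141.1) and in untreated cells (255.7 and 249.3). Its part in the levels of the skin genes was not tested.

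Among the blood, immune and endothelial genes, PRKCB, a protein kinase C of lymphocytes and also of brain, had 0 and 4 counts untreated, 0 and 4 under WT-MyoD, and 558 and 626 under VP64-MyoD. Its relative PRKCA had between 3748 and 6542 counts in every library and was not called different between the MyoD forms (log2 difference 0.08, SE 0.07, adjusted p by edgeR = 0.390). The other genes of the class were much lower. CD53, a tetraspanin of white blood cells, had 0 and 0, then 2 and 4, then 22 and 28 counts, and it overlaps LRIF1. The membrane protein gene MAL had 62 and 78 counts under VP64-MyoD, IGLL5, an immunoglobulin light chain-like gene, 62 and 58, and CD300C 30 and 24. PPP1R16B, CCM2L and TREM2, a receptor of macrophages and microglia, had between 20 and 30. TYROBP, the signalling partner of TREM2, had no count in any library, and neither did SPI1, IKZF1, CD3E or LCK, defining genes of blood cell lineages. PTPRC, another gene of white blood cells, was read in every library. It had 66 and 52 counts untreated, 42 and 46 under WT-MyoD, and 70 and 88 under VP64-MyoD (log2 difference 0.8, SE 0.28, adjusted p by edgeR = 0.025). Of 31 other tested genes of an endothelial and blood list, 11 were higher and 7 lower under VP64-MyoD, against 28.7% and 28.4% of all genes. The summed list level was 118.9 and 117.3 CPM under VP64-MyoD, below the 270.4 and 278.5 under WT-MyoD and the 147.9 and 145.2 in untreated cells. Much of the difference from WT-MyoD lay in 1 gene, CD68, with 9898 and 7318 counts under WT-MyoD and 1998 and 2344 under VP64-MyoD.

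The dynein heavy chain genes DNAH8, DNAH9 and DNAH3 encode motors of cilia and sperm tails. DNAH8 had 2 and 0 counts untreated, 2 and 0 under WT-MyoD, and 340 and 288 under VP64-MyoD. DNAH9 had 0 and 2, then 0 and 0, then 90 and 80. DNAH3 had 0 and 0, then 0 and 4, then 54 and 40, and overlaps LDAF1. Of the other dynein heavy chains, DNAH14 was higher under VP64-MyoD (log2 difference 1.02, SE 0.22, adjusted p by edgeR = 0.00106) and DNAH1 lower (log2 difference -1.51, SE 0.14, adjusted p by edgeR = 1.99e-07). FOXJ1, the master factor of motile cilia, had no count in any library. BOLL, an RNA-binding protein of germ cells, had 0 and 0, then 0 and 4, then 34 and 34 counts, ADAM29 had 38 and 44 under VP64-MyoD, and C16orf92 had 20 and 20. C16orf92 overlaps DOC2A and TLCD3B, which together went from 54 counts over the WT-MyoD libraries to 962 over the VP64-MyoD libraries. Of 17 other tested genes of a germ line and early embryo list, 2 were called higher and 0 lower, against 28.7% and 28.4% of all genes. The piRNA pathway gene TDRD1 was among the 2 (log2 difference 4.89, SE 0.19, adjusted p by edgeR = 1.8e-11). DDX4, PIWIL1, PRM1 and SYCP1, defining genes of germ cells, had no count in any library.

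The retina genes were RBP3 and LRIT1. RBP3, the retinoid carrier of the space between photoreceptors and pigment epithelium, had 0 and 0 counts untreated, 2 and 0 under WT-MyoD, and 108 and 128 under VP64-MyoD. LRIT1, a photoreceptor synapse protein, had 0 and 0, then 0 and 2, then 44 and 38. The photoreceptor factor CRX had between 44 and 78 counts in all 6 libraries and was not called different between the MyoD forms (log2 difference 0.12, SE 0.27, adjusted p by edgeR = 0.732). SAG, a defining gene of rods, and RPE65, of pigment epithelium, had no count in any library. Next to LRIT1, RGR, a retinal opsin relative, had 0 and 0, then 148 and 78, then 592 and 620 counts (log2 difference 2.42, SE 0.16, adjusted p by edgeR = 8.06e-09). Of 16 other tested genes of an eye and inner ear list, 5 were higher and 3 lower under VP64-MyoD (1 lower without VP64-MyoD replicate 2). The shares of all genes were 28.7% and 28.4%. OTOF, a gene of inner hair cells, was higher with a log2 difference of 3.89 (SE 0.20, adjusted p by edgeR = 1.93e-10). MYO7A (-1.63, SE 0.3, adjusted p by edgeR = 2.73e-04) and BEST1 (-0.49, SE 0.14, adjusted p by edgeR = 0.00655) of the same list were lower.

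Of the liver, gut and taste genes, UGT2B4, a glucuronosyl transferase of liver, had 0 and 0 counts untreated, 2 and 0 under WT-MyoD, and 250 and 264 under VP64-MyoD. The other UGT2B genes had at most 4 counts in any library. TRPM5, a cation channel of taste cells, had 48 and 44 counts under VP64-MyoD and none elsewhere, CYP4F3 50 and 52 under VP64-MyoD, LYPD8 22 and 30, and BTNL3, a butyrophilin-like gene of gut, 20 and 50. BTNL8, next to BTNL3 and similar to it, had 2 and 0, then 10 and 2, then 260 and 236 counts (log2 difference 5.34, SE 0.37, adjusted p by edgeR = 6.51e-09), and how reads were divided between them is uncertain.

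Of 17 tested genes of a liver, gut, pancreas and kidney list, none of them in the set, 5 were higher and 3 lower under VP64-MyoD, against 28.7% and 28.4% of all genes. The 5 became 3 with DESeq2, with no filter, without WT-MyoD replicate 2 or without VP64-MyoD replicate 1. CELA3A had the smallest adjusted p of the list and was higher (log2 difference 2.5, SE 0.16, adjusted p by edgeR = 6.64e-09). F10 (-3.05, SE 0.39, adjusted p by edgeR = 7.33e-06) and CUBN (-0.68, SE 0.1, adjusted p by edgeR = 2.5e-05) were among the lower. INS, GCG, FABP1 and UMOD, defining genes of pancreas, gut and kidney, had no count in any library.

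The potassium channel gene KCNQ1, a voltage-gated channel of heart and epithelia, had 2 and 0 counts untreated, 0 and 0 under WT-MyoD, and 256 and 254 under VP64-MyoD, at least 84.1-fold higher than under WT-MyoD. It overlaps the antisense non-coding gene KCNQ1OT1, which had 15196 counts over the WT-MyoD and 18272 over the VP64-MyoD libraries. Whether reads of KCNQ1OT1 were counted for KCNQ1 was not tested. The leak channel genes KCNK17 (0 and 0, then 2 and 0, then 208 and 184 counts) and KCNK5 (0 and 0, then 0 and 0, then 32 and 58) are neighbours on chromosome 6. Of the other KCNK genes, those called different were all lower under VP64-MyoD than under WT-MyoD: KCNK2 (log2 difference -1.26, SE 0.06, adjusted p by edgeR = 7.29e-11), KCNK15 (-1.28, SE 0.31, adjusted p by edgeR = 0.00238) and KCNK6 (-0.50, SE 0.10, adjusted p by edgeR = 3.71e-04).

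Among the genes without an assigned tissue, the receptor gene GPRC5C had 0 and 0 counts untreated, 4 and 4 under WT-MyoD, and 168 and 158 under VP64-MyoD. The forkhead factor FOXS1 had 4 and 0, then 0 and 0, then 150 and 144 counts and overlaps DUSP15. As the rule demands, both lay above the other groups, as did FGD3, which had 66 and 78 counts under VP64-MyoD. GADL1 (70 and 66), PWWP3B (68 and 48), NELL1 (46 and 76), LRRC30 (68 and 42) and VWA5B2 (46 and 34) were lower. LCNL1, EFNA1, SPSB4, AKNAD1, KIF26A, NLRP11 and SCARA5 had between 22 and 36. Of the non-coding genes and pseudogenes, RDUR had 0 and 2, then 2 and 0, then 84 and 82 counts, LINC01606 had 50 and 40 under VP64-MyoD and none elsewhere, and KRT17P5, a keratin pseudogene, had 90 and 50. ADAM20P1, CPVL-AS2, FAM238C, LDC1P, LINC00951, CLLU1OS and LINC03062 had between 22 and 54. Transcription factors in the set were NEUROD2, LBX1, FOXS1 and SCX.

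Some of the genes were neighbours on their chromosome. In the RefSeq gene order, 4 pairs made of 8 of the 90 genes lay next to each other: ANO5 and NELL1, KCNK17 and KCNK5, KCNQ1 and TRPM5, and LBX1 and LBX1-AS1. The 169 other direct neighbours of the 90 genes included 93 tested genes, of which 34 (36.6%) were higher and 19 (20.4%) lower under VP64-MyoD than under WT-MyoD, against 28.7% and 28.4% of all genes. Their median log2 difference was 0.15. Over 4-fold higher were 7 of them (7.53%), against 3.84% of all genes tested. Genes overlapping a member were passed over when its neighbours were taken. Some neighbours are similar in sequence to the member beside them, as BTNL8 is to BTNL3, and reads may be shared. RFPL4A (12 and 18 counts under VP64-MyoD) and KRTAP9-8 (18 and 16), both over 4-fold higher, were at 0 in the other groups. BTNL8 (2 and 0, then 10 and 2, then 260 and 236) and ZPLD1 (0 and 0, then 8 and 0, then 22 and 22) were over 4-fold higher as well. RFPL4A, KRTAP9-8, BTNL8 and ZPLD1 passed the filter only through VP64-MyoD, which favours large differences. No excess among neighbours is therefore read from the 7.53%.

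The 90 genes were part of a wider set of 372 genes that had at most 4 counts in each untreated library and at least 20 in both VP64-MyoD libraries. Of the 372, 147 also had at least 20 counts in both WT-MyoD libraries and 135 lay in between. The 147 had a median ratio of VP64-MyoD over WT-MyoD of 3.19 in CPM, and 118 of them had more CPM under VP64-MyoD. When the rule was turned around, 7 genes were read under WT-MyoD and not under VP64-MyoD: GALNT14, L3MBTL4, LINC00163, SLC35D3, SPAG17, SUCNR1 and UNC13C. UNC13C, a protein of synaptic vesicle release, had 78 and 62 counts under WT-MyoD and none in the other 4 libraries.

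**Figure D5:**
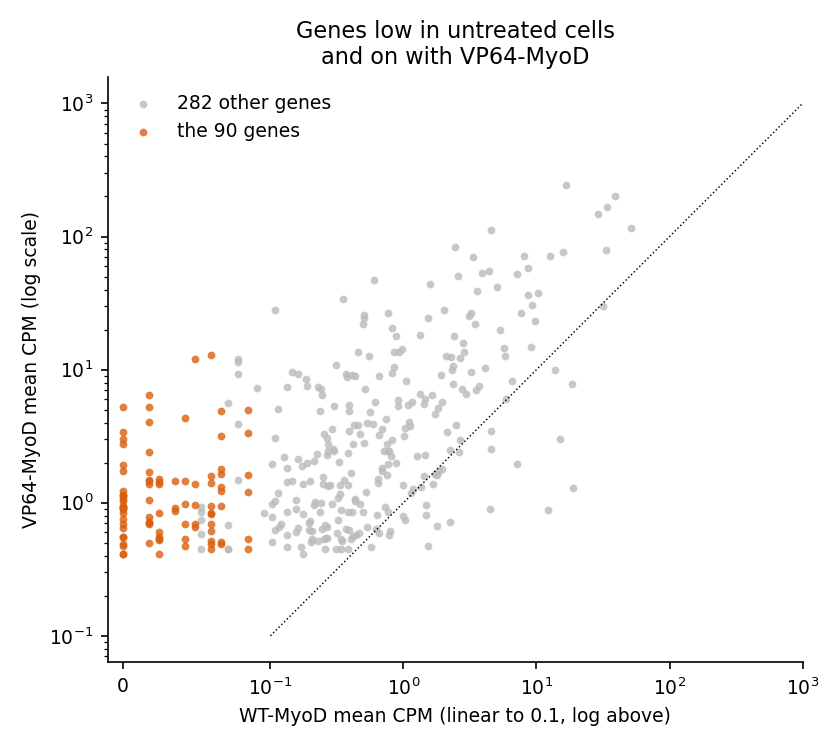
Mean CPM under WT-MyoD (horizontal axis, linear up to 0.1 and logarithmic above) and under VP64-MyoD (vertical axis, log scale) of the 372 genes with at most 4 counts in each untreated library and at least 20 in both VP64-MyoD libraries. The 90 genes (orange) are at the left because the rule limits their WT-MyoD counts, the dotted line marks equal levels, and other genes with high VP64-MyoD levels run on to the right without a gap.

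At the limits of the rule, 6 members had 20 counts in their lower VP64-MyoD library. Of these, BTNL3 (20 and 50 counts), C16orf92 (20 and 20) and DEFB103B (20 and 20) had no count in the 4 other libraries. PTPRT had 0 and 0 counts untreated, 0 and 2 under WT-MyoD, and 20 and 20 under VP64-MyoD. TREM2 had 0 and 0, then 4 and 4, then 24 and 20, and SBK3, given above, had 28 and 20 under VP64-MyoD. Just outside the lower limit lay, among others, the actin regulator gene ABRA (0 and 0, then 4 and 2, then 24 and 18 counts) and the cytokine receptor gene IL2RG (0 and 0, then 0 and 2, then 18 and 24). Just above the WT-MyoD limit lay 20 genes with 6 counts in a WT-MyoD library. Among them were MYBPC2 (0 and 2, then 4 and 6, then 1446 and 1294 counts), HS6ST2 (0 and 0, then 6 and 2, then 558 and 612) and CACNA1E (0 and 0, then 6 and 2, then 576 and 528). Just above the untreated limit lay 2 genes, SVOP (6 and 6, then 2 and 4, then 66 and 62 counts) and STRA6 (6 and 2, then 2 and 0, then 62 and 50). MYBPC2, just outside, had more VP64-MyoD counts than any of the 90.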

How the data were processed

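Polyadenylated RNA of 6 libraries in 3 groups was used. The tools CASAVA, Bowtie 0.12.9 and DESeq 1.10.1 and the build hg19 are listed, without roles, per the submitters' processing notes. The counting program and its strand setting are not given in the sources used here. The deposited table holds raw read counts per RefSeq transcript, all even. The authors' table of comparisons was not used.

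Of 40710 rows, 39324 were matched to a symbol through RefSeq, 517 through GENCODE release 29, 868 to none (0.601% to 0.744% of counts) and 1 was the transgene. Rows were summed per symbol. XIST and genes of the Y chromosome were left out. The fit was edgeR 4.0.16 (R 4.3.3) with TMM and filterByExpr (minimum count 10, minimum total 15), the two-sided quasi-likelihood test, all 6 libraries (3 residual degrees of freedom) and Benjamini-Hochberg adjustment over 15274 genes, with calls at an adjusted p under 0.05. A gene low elsewhere passed the filter through the group where it was high. On simulated counts for VP64-MyoD against WT-MyoD (15274 genes), 83% of 2-fold and 97% of 4-fold changes were recovered. Chi-square over its degrees of freedom between replicates was 3.35 (untreated), 13.1 (WT-MyoD) and 5.73 (VP64-MyoD), above sampling noise.

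Library totals are given in the text. Values in every library are given for the 20 highest of the 90 genes, those in the lineage lists, transcription factors and, among genes at the limits of the rule, those named there. Others named are neighbours, relatives and the list genes with the smallest adjusted p, and genes named as at 0 or as fibroblast, blood, neuron or retina checks were chosen after their values were seen. The members, the classes and the lists were chosen with earlier results of these data known. CPM per kilobase uses RefSeq lengths. Alternatives were other limits, DESeq2 1.42.0, RLE size factors, no filter, 2 groups alone, a replicate block and leaving out each library. Values of a few genes are not reported here.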

Additional observations from a re-analysis of the deposited data

Results flagged for a closer look

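Of the 868 transcript rows that matched no gene symbol, and so entered no comparison, 4 met the rule of the 90 genes on their own. They had between 20 and 302 counts in the VP64-MyoD libraries. Together they had 6 and 6 counts untreated, 10 and 8 under WT-MyoD, and 336 and 386 under VP64-MyoD.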

How the results depend on the processing

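The number of genes that met the rule, 90, moved with its limits. It was 22 with a ceiling of 0 counts, 55 with 2 and 166 with 10, and 169 with a floor of 10 counts and 36 with 50. Scaling counts to the mean library size left 66, all shared with the 90. Judging each transcript row alone gave 107, of which 81 were shared. Leaving out 1 library gave between 91 and 120. Leaving out genes that overlap another or share sequence, an alternative chosen after seeing the data, left 66. The 3 numbers of called genes stayed within 1.5 times of their values under every alternative run, and leaving out 1 library gave between 6886 and 9013 for VP64-MyoD against WT-MyoD. With the replicate number as a block, 8687 genes were called there against 8732 without it. Same-numbered libraries did not deviate together (correlations of 0.0290, 0.0197 and 0.00462), so the numbers were not taken as pairing. Within the lists, calls on epithelial genes fell from 10 to 6 with DESeq2. Depth limits the set: a count of 0 in a group allows up to 3 read pairs.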
